A study of Homo sapiens with 18 samples.

Results

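The genes described here are 10 genes of iron handling: HMOX1 and BLVRB of heme breakdown, FTL, FTH1 and NCOA4 of iron storage, TFRC, SLC11A2, STEAP3 and SLC39A14 of iron uptake, and the exporter gene SLC40A1. They were chosen by name, as textbook iron genes built around HMOX1 and FTL, which the study had picked from its comparisons of cultures with fresh tumor tissue. All 10 were found among the 50119 genes of the processed data, and the pathway annotation deposited with these data lists 9 of them under ferroptosis, with BLVRB as the exception. The study cultured Saos-2, an established human osteosarcoma (OS) cell line that the labels spell "Soas-2", in different ways and compared each culture with tumor tissue. RNA was sequenced in 18 libraries, 3 in each of 6 groups. All groups carry the genotype label WT and no drug was given. D-2 were cells in flat 2D culture and D-3 were cells grown inside Matrigel, a gel of basement membrane proteins. DP-3 were cells bioprinted in a bioink of gelatin methacrylate and alginate, which was set with blue light and calcium chloride. Fresh isolated tumor tissue (FIT) came from Saos-2 tumors grown under the skin of female BALB/c nude mice and taken at week 2 after implantation. Isolated tissue (IT) was pieces of such tumors cultured on Matrigel. IT, DP-3, D-3 and D-2 were sampled on day 14 of culture, and a further group, DP-3 day 1, was sampled on day 1 after printing. Tumor pieces hold cells of the mouse host besides Saos-2 cells, and how mouse reads were treated is not given in the sources used here. The labels do not say that the libraries of a group were separate cultures or animals, or which IT and FIT libraries share a tumor, so p-values measure the spread between these libraries, which may be technical.

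Cells take up most iron as transferrin, which binds the transferrin receptor TFRC and is carried into endosomes. There STEAP3 reduces the iron and SLC11A2 (DMT1) moves it into the cytosol, while SLC39A14 (ZIP14) takes up iron that is not bound to transferrin. Heme oxygenase 1 (HMOX1) opens the heme ring and frees its iron. Biliverdin reductase B (BLVRB) is a reductase of biliverdin pigments, and is not taken here as the step that follows HMOX1. Free iron is stored in ferritin, a shell of FTL and FTH1 chains that NCOA4 delivers to lysosomes when iron is needed, and ferroportin (SLC40A1) is the exporter. Ferroptosis is a form of cell death driven by iron and lipid peroxidation, so the pool of free iron is one of the points at which it is set.

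Ferritin, TFRC and ferroportin messages are among those known to carry the iron-responsive element (IRE), a hairpin bound by the iron regulatory proteins when iron is scarce. In the 5′ UTR the bound hairpin blocks translation, and in the 3′ UTR it protects the message from decay. Transcript level can therefore follow iron in TFRC, while ferritin is also set after transcription, which RNA sequencing does not show. The hairpin was searched on the coding strand of the GENCODE transcripts of all genes, as the letters CNNNNNCAGTGN with 5 paired bases on each side of the 6-base loop and at least 3 pairs among the 4 positions below the unpaired C. It was found in 48 of 19669 genes with a coding transcript (0.244%), against 70.3% that hold the letters alone, and in 4 of the 10 iron genes. A match is a description of the letters, not a measured binding site. The matches are shown because they put the matching genes in a 5′ and a 3′ group, with the loop in capitals, 5′ to 3′ on the gene's strand, and with positions on GRCh38.
FTL, 5′ UTR, plus strand, chr19:48965337-48965361: cttgcttcaaCAGTGTttggacgga
FTH1, 5′ UTR, minus strand, chr11:61967576-61967600: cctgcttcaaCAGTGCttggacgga
SLC40A1, 5′ UTR, minus strand, chr2:189580663-189580687: acttcagctaCAGTGTtagctaagt
TFRC, 3′ UTR, minus strand, chr3:196050981-196051005: ttatcggaagCAGTGCcttccataa
TFRC, 3′ UTR, minus strand, chr3:196050577-196050601: ttatcgggagCAGTGTcttccataa
TFRC, 3′ UTR, minus strand, chr3:196050512-196050536: gtatcggagaCAGTGAtctccatat
TFRC, 3′ UTR, minus strand, chr3:196050465-196050489: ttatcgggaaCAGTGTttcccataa
FTL and FTH1 hold nearly the same hairpin, and TFRC holds 4 matches. The search gave no match in HMOX1, BLVRB, NCOA4, STEAP3, SLC11A2 and SLC39A14, which says only that no paired hairpin of this form was found in their transcripts. An IRE with a different stem would be missed, so these genes are not shown to lack one.

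Library totals ran from 23721666 estimated counts in FIT replicate 3 to 79082786 in D-2 replicate 3, and genes of the mitochondrial genome took from 9.85% (D-2 replicate 1) to 34.0% (DP-3 replicate 3) of the summed FPKM. FPKM are fragments per length of gene, set against the library's total, and all levels below are in this unit. Of the genes listed for osteoblast-like Saos-2 cells, RUNX2 and COL1A1 were detected in all 18 libraries, while SP7, ALPL and IBSP stayed at or below 0.148 FPKM in every library. Hemoglobin and the other red blood cell genes, 8 of 9 listed in the data, had means below 0.5 FPKM in every group. Their sum was highest in DP-3 day 1 (0.356 to 0.867) and did not pass 0.465 in any library of the other groups, and its part in the results below was not tested. Of 10 macrophage genes, CD14, CD163, ITGAM, MRC1, AIF1, TYROBP and PTPRC did not pass 0.727 FPKM in any library, and CD68, ADGRE1 and CSF1R were detected in all 6 groups. The summed macrophage list ran from 66.1 to 92.8 in DP-3 day 1, 51.6 to 119.7 in DP-3, 64.3 to 90.7 in D-3, 48.6 to 70.2 in IT, 47.4 to 50.3 in D-2 and 24.7 to 61.8 in FIT. Nearly all of it was CD68, a lysosomal protein gene that other cells also use, and its part in the results below was not tested. In bulk libraries, fewer cells of a kind and less RNA per cell cannot be told apart.

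HMOX1 (ENSG00000100292, chromosome 22) varied more than any other of the 9 genes that were above the detection limit in all groups. In FIT its level was 13.3, 21.8 and 9.18 in replicates 1 to 3, the lowest group. In D-2 it was 35.7, 33.5 and 28.98, and in IT 66.3, 44.7 and 84.6. In DP-3 on day 14 it was 72.5, 49.2 and 53.0. D-2 lay above every FIT library and below every library of the 4 other groups. In D-3 HMOX1 reached 171, 139 and 82.3, and in DP-3 day 1 it reached 248, 280 and 250. The mean of DP-3 day 1 (259 ± 18.04, SD, n = 3) was 17.6-fold the mean of FIT (14.8 ± 6.42, n = 3). Day 1 stood apart from all other groups, D-3 replicate 3 overlapped with IT, and IT overlapped with DP-3.

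BLVRB, the reductase of biliverdin pigments, had a narrower range of 11.6 to 36.5 over all libraries. Its mean was again highest in DP-3 day 1 (33.2 ± 4.30, n = 3) and D-3 (29.2 ± 3.58), and lowest in FIT (13.003 ± 2.34), a span of 2.55-fold. The 3 D-3 libraries (29.5, 32.6 and 25.5) lay above every IT library (20.2, 19.0 and 17.9). DP-3 on day 14 was scattered, at 23.8, 19.4 and 13.1, and overlapped with FIT, D-2 and IT.

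**Figure D1:**
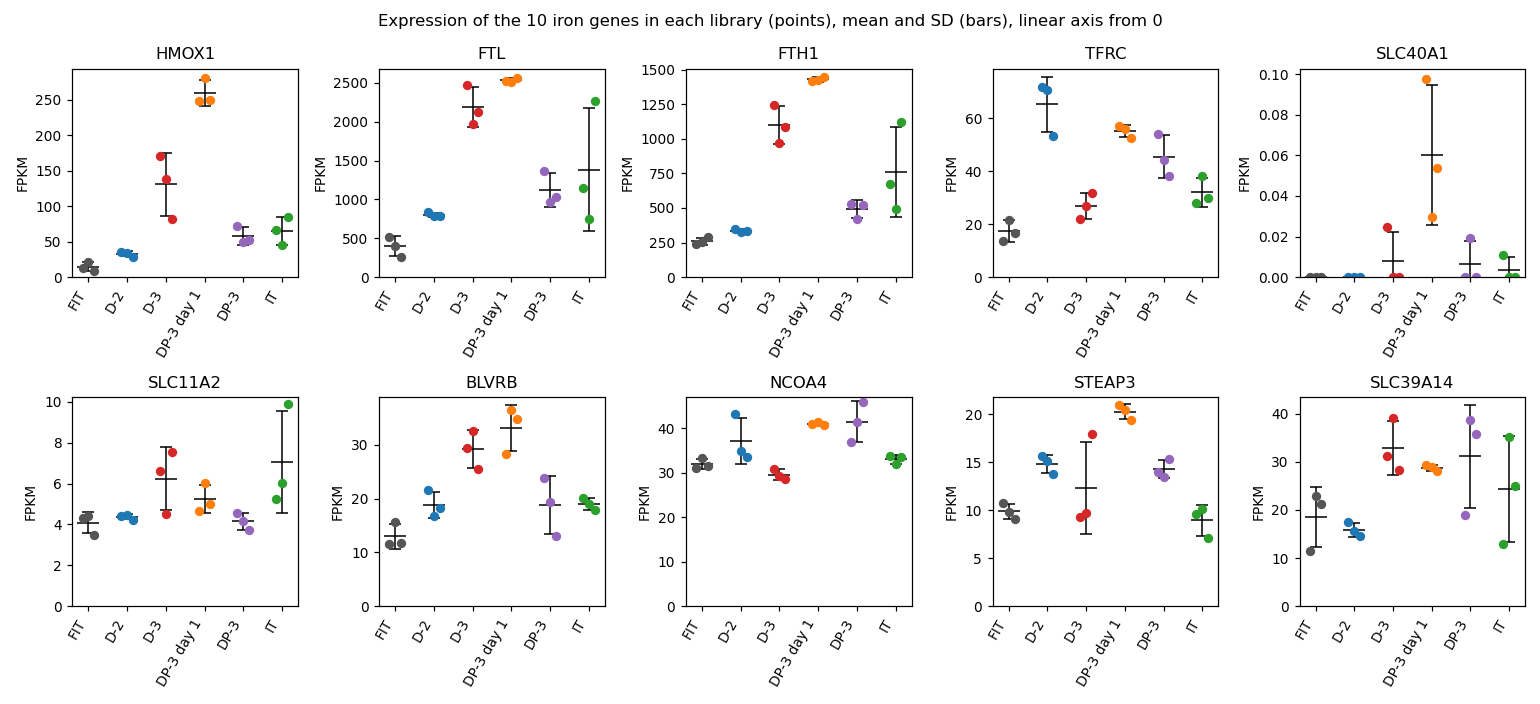
Each panel plots 1 gene, with FPKM on a linear axis from 0 and the 6 groups along the bottom; each point is a library, the long dash is the mean and the bars are the SD of 3 libraries. HMOX1, FTL and FTH1 share 1 order of groups with DP-3 day 1 on top and FIT at the bottom, whereas TFRC is highest in D-2, and SLC40A1 does not pass 0.0976 FPKM in any library.

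The ferritin chains were among the most abundant messages of these cells, with FTL between rank 4 and rank 90 and FTH1 between rank 12 and rank 91 of 50119 genes in a library. FTL, the light chain that helps iron to form a core, was 519, 404 and 263 in FIT and 834, 787 and 793 in D-2. On day 14 it was 1365, 961 and 1034 in DP-3 and 1141, 745 and 2266 in IT. IT replicate 3 was far above the other 2 IT libraries and reached the range of D-3. In D-3 FTL was 2473, 1976 and 2127, and in DP-3 day 1 it was 2528, 2510 and 2569. The 3 day 1 libraries lay above all others, and the day 1 mean (2536 ± 30.1, n = 3) was 6.41-fold that of FIT (395 ± 128).

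FTH1, the heavy chain that oxidizes iron, was 237, 257 and 287 in FIT and 349, 329 and 331 in D-2. It was 532, 420 and 523 in DP-3 on day 14 and 672, 490 and 1118 in IT, with IT replicate 3 again the highest of its group. D-3 libraries reached 1240, 968 and 1083, and DP-3 day 1 libraries reached 1417, 1423 and 1447. The groups followed the same order as for FTL and HMOX1, and the mean of DP-3 day 1 (1429 ± 15.5) was 5.49-fold that of FIT (260 ± 24.7). For all 3 genes, 3 of the 5 neighbouring pairs of groups in that order did not overlap, and D-3 with IT and IT with DP-3 did. The groups were ordered by these same means, and no share over all genes is given for these pairs. In D-3 against D-2 and DP-3 day 1 against D-2, 53.2% and 60.4% of all genes tested did not overlap. Such counts of pairs are therefore a description only, here and for the genes below.

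The proportion of the chains differed between groups. FTL was 2.39 times FTH1 in D-2 (SD 0.00669, n = 3), 2.28 ± 0.296 in DP-3 and 2.00 ± 0.0392 in D-3. It was 1.77 ± 0.00946 in DP-3 day 1 and 1.75 ± 0.256 in IT. In FIT the ratio was scattered from 0.918 to 2.19, and the lowest value was that of FIT replicate 3, the library with the fewest counts. NCOA4, the receptor that carries ferritin to lysosomes, kept within 28.6 to 46.1 over all libraries. Its mean was highest in DP-3 (41.5 ± 4.60) and lowest in D-3 (29.6 ± 1.21), a span of 1.40-fold, so the storage genes did not share 1 pattern.

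TFRC, the receptor for transferrin, was ordered differently. In D-2 it was 71.7, 70.9 and 53.2, the highest group by its mean. DP-3 day 1 followed with 57.3, 55.9 and 52.6, and DP-3 with 54.1, 44.4 and 38.2. IT was at 28.1, 38.3 and 29.8. D-3 lay below all D-2 and both DP-3 groups with 21.9, 27.0 and 31.9, and FIT was lowest with 13.7, 21.7 and 16.8. The D-2 mean (65.3 ± 10.5, n = 3) was 3.75-fold that of FIT (17.4 ± 4.06), and of the 5 neighbouring pairs of groups only D-3 and FIT did not overlap.

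The other uptake genes varied less. SLC11A2 ran from 3.49 to 9.90 over the 18 libraries, with its highest mean in IT (7.06 ± 2.49), where replicate 3 (9.90) stood above replicates 1 (5.24) and 2 (6.05). STEAP3 was highest in DP-3 day 1 with 20.9, 20.5 and 19.4, above every library of the other groups. In D-3 its values of 9.29, 9.73 and 17.9 were split by replicate 3, and in FIT the mean was 9.86 ± 0.819. SLC39A14 was lowest in D-2 (17.5, 15.5 and 14.7) and reached 31.2, 39.3 and 28.4 in D-3. It was scattered within IT, at 12.97, 35.1 and 24.96, and within DP-3, at 18.9, 38.8 and 35.9, so no neighbouring pair of groups in its order was apart.

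SLC40A1, the only known iron exporter of mammalian cells, was near or below the detection limit. A library was taken as at the detection limit at 12 estimated counts, which is 3 read pairs at the about 4 counts that 1 pair gives here, and covers counting error only. FIT and D-2 had 0 counts in all 6 libraries, which allows up to 0.292 CPM, counts scaled by the library total, in FIT and 0.1585 CPM in D-2 as group means. Single D-3, DP-3 and IT libraries held 8, 8 and 4 counts. DP-3 day 1 was the only group above the limit, with 26, 8 and 14 counts, a mean of 0.315 CPM. The day 1 libraries also held more genes at 0.1 FPKM or above, 24694 to 24791 against 17716 to 22322 in the other groups. Other low genes of the iron lists, TF, CP and STEAP4, likewise had their highest means there, at 0.942, 0.664 and 0.415 CPM. The part of this in the SLC40A1 counts was not tested. SLC40A1 did not pass the filter on low values in any comparison, so 9 of the 10 genes were tested below. With no filter it was called higher in DP-3 day 1 than in D-2. It entered that fit only through the day 1 libraries, since D-2 had 0 counts, so this call is no support. The day 1 mean was at least 1.99-fold the detection limit of D-2, which is below the 2-fold threshold for a call.

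Over the 18 libraries, the log2(FPKM + 0.1) levels of HMOX1 and FTL had a Pearson r of 0.95, HMOX1 and FTH1 0.94, and FTL and FTH1 0.94. BLVRB followed them, with r of 0.90 to HMOX1, 0.84 to FTL and 0.82 to FTH1. These points share groups and the FPKM scale. The same r was therefore also taken from deviations from the group means, which removes the groups but not the shared scale. It was then 0.72 for FTL with FTH1, 0.65 for HMOX1 with FTL and 0.45 for HMOX1 with FTH1, while BLVRB had 0.07 with FTL and -0.11 with FTH1. BLVRB with HMOX1 had 0.50. SLC11A2, with r of 0.60 to FTL and 0.61 to FTH1 over the levels, had 0.68 and 0.57 within groups, above the value of HMOX1 with FTH1. IT replicate 3 was the highest IT library in FTL (2266), FTH1 (1118) and SLC11A2 (9.90). The r within groups among these genes may rest on this 1 library, and no r was taken without it. In FIT, FTL fell over replicates 1 to 3 (519, 404 and 263) while FTH1 rose (237, 257 and 287). HMOX1 with STEAP3 went from 0.43 to -0.55. TFRC was only weakly related to FTH1 (0.21) and FTL (0.36), and its highest r among these genes were with STEAP3 (0.70) and NCOA4 (0.64). Within groups these were 0.38 and -0.11.

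**Figure D2:**
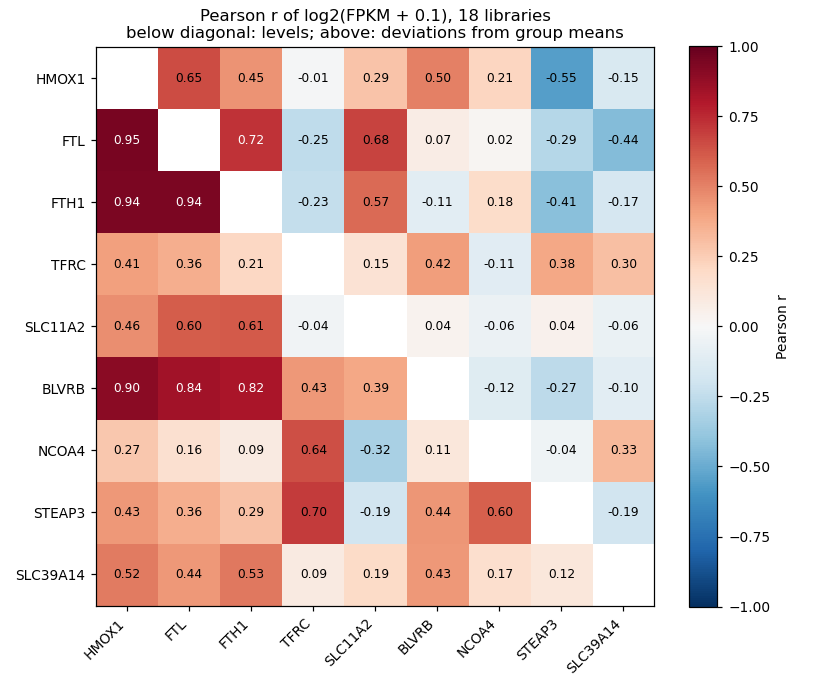
The grid gives Pearson r between pairs of 9 iron genes over 18 libraries, with levels below the diagonal and deviations from group means above it; red is positive and blue negative. HMOX1, FTL, FTH1 and BLVRB are the darkest red below the diagonal, with r from 0.82 to 0.95, and above it FTL with FTH1 is at 0.72 while BLVRB with FTH1 is at -0.11. IT replicate 3 was the highest IT library in both FTL and FTH1.

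Storage and uptake messages were compared within each library as the ratio of FTH1 to TFRC. The ratio was lowest in D-2, at 5.24 ± 0.846 (SD, n = 3), followed by DP-3 with 11.0 ± 2.35 and FIT with 15.4 ± 3.09. It was 25.9 ± 1.42 in DP-3 day 1, 24.7 ± 12.4 in IT and 42.2 ± 12.5 in D-3. D-2 libraries (4.65 to 6.21) did not overlap with any other group, and neither did D-3 (34.0 to 56.6) except with IT (12.8 to 37.5). The groups reached their ratios in different ways. In FIT both genes were low, in DP-3 day 1 both were high, in D-2 TFRC was high beside low FTH1, and in D-3 FTH1 was high beside low TFRC.

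**Figure D3:**
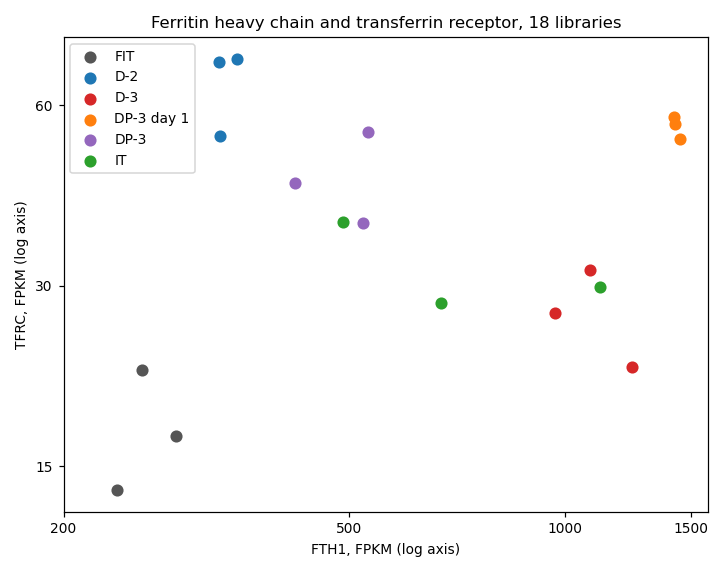
Each point is 1 of 18 libraries, with FTH1 across and TFRC upward, both in FPKM on log axes, coloured by group. FIT sits at the lower left (TFRC 13.7 to 21.7), DP-3 day 1 at the upper right (FTH1 1417 to 1447), D-2 at the upper left and D-3 at the right below 31.9 for TFRC, so the groups do not lie on 1 line.

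The cultures were compared with each other by the quasi-likelihood test of edgeR, with p-values adjusted by the Benjamini-Hochberg method over all genes tested, and a gene was called at an adjusted p below 0.05 and a fold change of at least 2. These 4 comparisons share libraries with each other and are not independent. Fold changes below are log2 values of this fit ± their standard errors, unless FPKM is named. On the FPKM scale the median of all genes was higher in D-3 than in D-2 by 0.30 and in DP-3 day 1 than in D-2 by 0.35, and the median log2 change was -0.24 in DP-3 against D-3 and -0.29 in DP-3 against DP-3 day 1. In the edgeR fit the same medians were 0.11, 0.09, -0.05 and -0.06. Changes are therefore given from edgeR, and the raw FPKM levels above carry these shifts.

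D-3 against D-2 asks what growth in a matrix changes against flat culture. Of 9 genes tested, 3 were called higher and 1 lower in D-3, where 18.5% of all 20231 genes tested were called, 14.6% higher and 3.95% lower. HMOX1 rose by 1.75 ± 0.26 (edgeR, adjusted p = 0.00383), FTH1 by 1.45 ± 0.12 (edgeR, adjusted p = 0.00127) and FTL by 1.19 ± 0.12 (edgeR, adjusted p = 0.00158). TFRC fell, with a log2 fold change of -1.53 ± 0.18 (edgeR, adjusted p = 0.00231). In each of these 4 genes all 3 D-3 libraries lay on 1 side of all 3 D-2 libraries, which held for 8 of the 9 genes and for 53.2% of all genes tested. SLC39A14 (0.80 ± 0.15) and NCOA4 (-0.58 ± 0.12) passed the adjusted p, at 0.00754 and 0.0117 by edgeR, but not the fold threshold. On log2(FPKM + 0.1) with limma SLC39A14 was also called, with 1.04. BLVRB, SLC11A2 and STEAP3 did not pass the test, with 0.38, 0.26 and -0.52. All 4 calls stood without any single library.

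DP-3 day 1 against D-2 compares freshly printed cells with flat culture, and the days of culture, 1 and 14, differ as well as the printing, so that these cannot be told apart. The same 3 genes were called higher as in D-3, where 17.2% of 20269 genes were called and 13.1% higher. HMOX1 rose by 2.68 ± 0.10, FTH1 by 1.78 ± 0.04 and FTL by 1.35 ± 0.04, each with an adjusted p of 1.76e-05 by edgeR, the lowest in this comparison over all genes. In all 3 the 6 libraries were split without overlap, as in 60.4% of all genes tested. TFRC did not go down by the fold threshold, with -0.55 ± 0.12 (edgeR, adjusted p = 0.00875), and its libraries overlapped. SLC39A14 (0.55 ± 0.07) and BLVRB (0.51 ± 0.13) passed the adjusted p, at 0.00110 and 0.0195 by edgeR, below 2-fold. SLC11A2 and NCOA4 changed sign between scales, from -0.05 and -0.17 by edgeR to 0.26 and 0.14 as the log2 ratio of mean FPKM, so no direction is given for them. STEAP3 was at 0.14 ± 0.06 and missed the test.

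DP-3 against DP-3 day 1 follows the printed cells from day 1 to day 14. HMOX1 fell by 1.89 ± 0.16 on the log2 scale (edgeR, adjusted p = 0.00159) and FTH1 fell by 1.27 ± 0.13 (edgeR, adjusted p = 0.00215), and these 2 of 9 genes were called where 7.56% of 20774 genes were, 5.76% in the downward direction. FTL fell by 0.91 ± 0.14 (edgeR, adjusted p = 0.00619), less than 2-fold. It was called on log2(FPKM + 0.1) with limma (-1.20), with a minimum of 1 FPKM (-1.02) and without DP-3 replicate 1 (-1.06). TFRC was at -0.01 ± 0.12, and BLVRB at -0.56 ± 0.20 did not pass the adjusted p. SLC39A14, NCOA4, STEAP3 and SLC11A2 did not pass either, with log2 fold changes from -0.24 to 0.39. By day 14, DP-3 libraries of HMOX1 (49.2 to 72.5) were still above all D-2 libraries (28.98 to 35.7).

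DP-3 against D-3 compares printed cells in bioink with unprinted cells in Matrigel on day 14. The printing, the setting of the bioink and the matrix cannot be told apart. None of the 9 genes was called by edgeR, where 9.12% of 20682 genes were. At an unadjusted p under 0.05 there were 5 of the 9, as were 6707 of all 20682 genes. Of the 9, 4 passed the adjusted p below 2-fold. DP-3 was lower in FTH1 (-0.93 ± 0.18, edgeR, adjusted p = 0.0185) and FTL (-0.75 ± 0.19, edgeR, adjusted p = 0.0362). It was higher in TFRC (0.97 ± 0.19, edgeR, adjusted p = 0.0181) and NCOA4 (0.71 ± 0.15, edgeR, adjusted p = 0.0227). HMOX1 was at -0.95 ± 0.27 with an adjusted p of 0.0527 by edgeR, although its libraries did not overlap. The ferritin and TFRC values lay near the 2-fold threshold. DESeq2 also called 0, limma on log2(FPKM + 0.1) and a minimum of 1 FPKM each called 2, and 1 or 2 genes were called without D-3 replicate 2 (1), D-3 replicate 3 (1) or DP-3 replicate 3 (2).

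**Figure D4:**
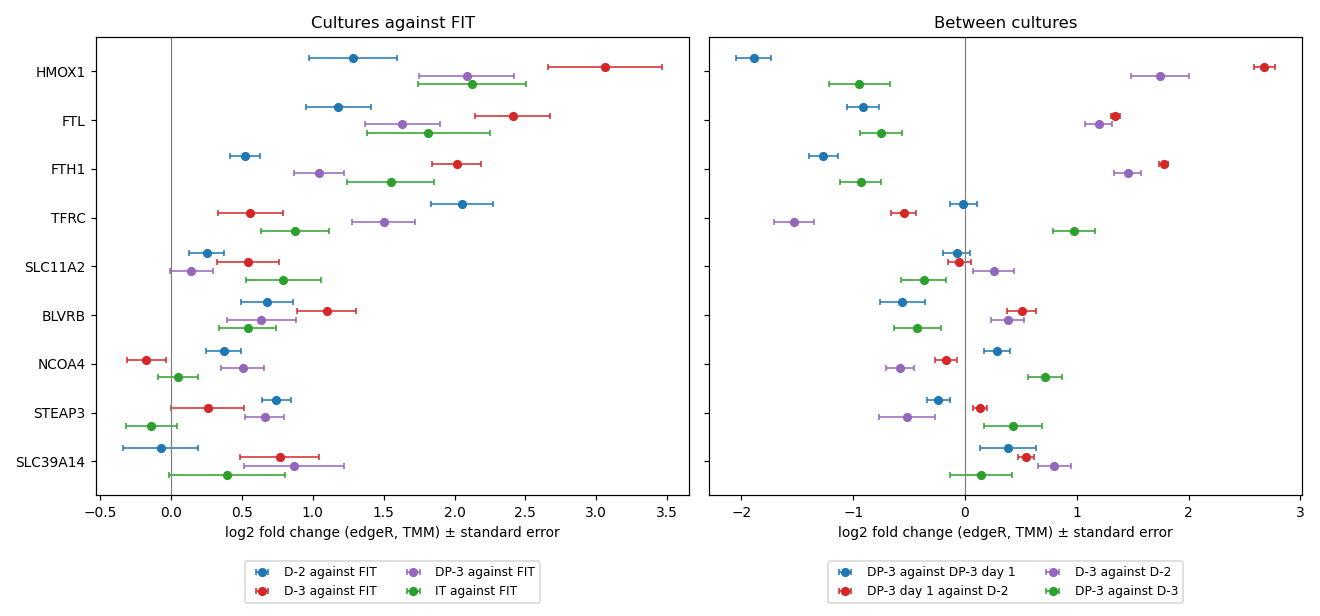
Points are log2 fold changes from edgeR for the 9 tested genes and bars are their standard errors, with the 4 comparisons with FIT on the left and the 4 between cultures on the right. On the right HMOX1, FTL and FTH1 are above 0 in both comparisons with D-2 and below 0 in both of DP-3, and TFRC lies at -1.53 in D-3 against D-2.

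FIT is the study's reference, and HMOX1 and FTL were picked from the comparisons with it, so those values are a description of the choice and support nothing. The same 3 FIT libraries enter all 4. D-2 was higher than FIT in TFRC (2.05 ± 0.22), HMOX1 (1.28 ± 0.31) and FTL (1.18 ± 0.23), 3 of 9 called where 14.6% of all genes were, 3.83% in this direction. FTH1 was below 2-fold there, at 0.52 ± 0.11, the smallest difference of this gene from FIT. HMOX1 was not called without FIT replicate 1 (1.16), D-2 replicate 1 (1.21) or D-2 replicate 2 (1.26), and FTL was not without FIT replicate 3 (0.92). In D-3 the called genes were HMOX1 (3.06 ± 0.40), FTL (2.41 ± 0.27), FTH1 (2.02 ± 0.17) and BLVRB (1.10 ± 0.21), 4 of 9 where 6.45% of all genes were called, 4.29% in this direction. TFRC in D-3 was at 0.56 ± 0.23. BLVRB was not called without FIT replicate 1 (0.99), D-3 replicate 1 (1.09) or D-3 replicate 3 (1.20).

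DP-3 was higher than FIT in HMOX1 (2.08 ± 0.33), FTL (1.63 ± 0.26), TFRC (1.499 ± 0.23) and FTH1 (1.05 ± 0.18), 4 of 9 called against 4.82% of all genes, 1.66% in this direction. This count fell in some fits without 1 library, as did the 965 calls over all genes. It was 0 without FIT replicate 1 (117 over all genes) and 2 without FIT replicate 2 (250). Without DP-3 replicate 1 it was 0 (90) and without DP-3 replicate 3 it was 1 (233). It stayed at 4 without FIT replicate 3 (1438) or DP-3 replicate 2 (242). The log2 fold changes stayed between 0.96 and 2.12 in the calls so lost. In IT, no iron gene and no gene at all was called by edgeR on the 6 libraries compared (0% of 21183), where 2693 genes had an unadjusted p under 0.05. An edgeR fit of all 18 libraries called 553 genes, edgeR with no filter called 53 and DESeq2 called 661. Of the 9 iron genes, 6 had an unadjusted p under 0.05. The log2 fold changes were 2.12 ± 0.38 for HMOX1, 1.82 ± 0.43 for FTL and 1.55 ± 0.31 for FTH1, and IT replicate 3 was the highest IT library in all 3. DESeq2 and a fit of all 18 libraries called these 3. SLC11A2 had its highest difference from FIT in IT (0.79 ± 0.27), and IT replicate 3 was its highest library.

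The wider iron system was described with 57 other genes of uptake, storage, export, sensing, heme and iron-sulfur clusters, of which 42 to 44 passed the filter in a comparison. With both directions pooled, their calls lay near the share of all genes in D-2 against FIT, at 6 of 42 (14.3%) beside 14.6%. By direction they did not, with 5 higher and 1 lower in D-2, while over all genes 747 calls were higher and 2099 lower. The calls were 5 of 42 in DP-3 against FIT (11.9%, with 4.82% of all genes) and 6 of 44 in D-3 against FIT (13.6%, with 6.45%). Of these, 4 were higher in DP-3 and 5 in D-3, where 1.66% and 4.29% of all genes were called higher. The median log2 fold change of the list was 0.27 in D-2 beside -0.09 for all genes, 0.19 in DP-3 beside -0.06, and 0.14 in D-3 beside 0.02. STEAP1, a relative of STEAP3, was called higher than FIT in DP-3 (1.53 ± 0.21), D-2 (1.68 ± 0.19) and D-3 (1.16 ± 0.25). SLC39A8, a metal importer of the same family as SLC39A14, was higher in DP-3 (1.25 ± 0.29), D-3 (1.504 ± 0.29) and D-2 (1.29 ± 0.28). ACO1, which encodes iron regulatory protein 1, was higher in DP-3 (1.03 ± 0.16), D-2 (1.32 ± 0.13) and D-3 (1.15 ± 0.19), and NEO1, a co-receptor of hepcidin control, was higher in DP-3 (1.15 ± 0.21). NEO1 kept its call in 7 of 14 alternatives, SLC39A8 in DP-3 in 6 of 14 and STEAP1 in D-3 in 9 of 14. ACO1 in DP-3 lost its call with a minimum of 1 FPKM, with limma at both pseudocounts and with the replicate block. It was also lost there without FIT replicate 1 or 2 or DP-3 replicate 1 or 3. In D-3 ACO1 was not called without FIT replicate 1 or 2 or D-3 replicate 1 or 3. The values of SLC39A8 in D-2 and of ACO1 in DP-3 and D-3 were added after they had been seen. FLVCR2, a membrane transporter of the heme exporter family, fell in all 3 cultures, with log2 fold changes of -2.51 ± 0.31 in DP-3, -3.41 ± 0.27 in D-2 and -3.95 ± 0.40 in D-3. Its mean level was 7.29 in FIT and 1.16, 0.614 and 0.486 in these cultures. Of 6 endothelial marker genes, PECAM1 and CDH5 fell in the same comparisons, with log2 fold changes of -1.12 and -3.09 in DP-3, -1.14 and -2.90 in D-2 and -2.06 and -4.16 in D-3. The endothelial list summed to 3.84 to 6.08 FPKM in FIT, 4.31 to 6.57 in IT, 1.78 to 2.11 in DP-3, 1.57 to 1.92 in D-2, 1.60 to 2.35 in DP-3 day 1 and 1.17 to 1.28 in D-3, with KDR at or below 0.0502 in every library. The fibroblast list, nearly all of it PDGFRA, summed to 21.4 to 29.4 in FIT and was lower in all libraries of the other groups, at 5.97 to 18.5. Their part in the FLVCR2 values was not tested. In IT FLVCR2 was at -1.51 ± 0.35 and was not called (edgeR, adjusted p = 0.208), in a fit that called no gene at all. DESeq2 and a fit of all 18 libraries called it lower in IT. SLC46A1, a folate carrier that also takes up heme, was higher in D-2 (2.03 ± 0.53) at levels of 0.479 against 0.128, and kept this call in 6 of 13 alternatives. The adjusted p of the iron genes named here as called in DP-3, D-2 and D-3 were between 0.00149 and 0.0415 by edgeR. The counts of calls fell in some fits without 1 library, as did those over all genes. In D-3 the list had 3 calls without FIT replicate 1 or 2 and 1 without D-3 replicate 1 or 3. Over all genes the 1399 calls in D-3 became 712, 632, 347 and 240 in these fits. In DP-3 the list had 2 calls without FIT replicate 1 or 2, 0 without DP-3 replicate 1 and 2 without DP-3 replicate 3. Over all genes the 965 calls in DP-3 became 117, 250, 90 and 233. In IT 0 of 42 were called by edgeR, and 6 by DESeq2. An unadjusted p under 0.05 by edgeR was found for 10 of the 42 and for 2693 of all 21183 genes.

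LCN2, a secreted protein that binds iron-carrying siderophores, was above the detection limit in every library of D-3 and of no other group. It was at 3.23, 3.23 and 4.11 FPKM in the 3 D-3 libraries, on 376 to 519 estimated counts. In FIT, D-2, DP-3 and DP-3 day 1 no library had more than 4 counts, and in IT the libraries had 11, 0 and 27. The mean of D-3 (6.83 CPM) was at least 23.4-fold higher than the detection limit of FIT, at least 43.0-fold higher than that of D-2 and at least 39.3-fold higher than that of DP-3. LCN2 passed the filter on low values only through the 3 D-3 libraries in which it is high, so its calls in these comparisons, which count in the numbers given for the list, are no support. With a D-3 library left out it fell below the filter and was not tested.

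Between cultures, 4 of 44 other iron genes were called in D-3 against D-2 (9.09%, with 18.5% of all genes). Besides LCN2 these included HEPH, a copper enzyme that oxidizes exported iron (1.495 ± 0.30, adjusted p = 0.00972), and IREB2, which encodes iron regulatory protein 2 (-1.01 ± 0.13, adjusted p = 0.00260), both by edgeR. IREB2 was close to the 2-fold threshold, at -0.74 on log2(FPKM + 0.1), and the list had 2 calls without D-3 replicate 1 or 3, where LCN2 was not tested. In DP-3 day 1 against D-2, 6 of 43 were called (13.95%, with 17.2% of all genes). HMOX2, the constitutive heme oxygenase, fell by 1.14 ± 0.09 (edgeR, adjusted p = 0.000116), in the opposite direction to HMOX1, from 12.8 ± 0.911 FPKM in D-2 to 7.21 ± 0.588 in DP-3 day 1. On log2(FPKM + 0.1) this was -0.82. SLC46A1 fell by 2.06 ± 0.50, STEAP2 rose by 1.16 ± 0.37 and SLC22A17, a receptor for LCN2, rose by 1.45 ± 0.42 at levels of 0.299 against 0.0852 FPKM, with adjusted p of 0.0156, 0.0425 and 0.0309 by edgeR. STEAP2 and SLC22A17 kept their calls in 6 of 14 and 6 of 13 alternatives, and the list had 3 calls without D-2 replicate 2 or DP-3 day 1 replicate 1. In DP-3 against DP-3 day 1 the only call of 43 genes (2.33%, with 7.56%) was ERFE, which encodes erythroferrone, at -1.20 ± 0.27 (edgeR, adjusted p = 0.0221), and there was none without DP-3 replicate 2 or any 1 library of day 1. In DP-3 against D-3, LCN2 and FLVCR2 (1.48 ± 0.40, edgeR, adjusted p = 0.0423) were the 2 calls of 44 genes (4.55%, with 9.12%). FLVCR2 kept its call in 5 of 13 alternatives. It was lost with limma at both pseudocounts (1.14 and 0.54), with the replicate block (1.51), and without D-3 replicate 1 (1.48) or 3 (1.18) or any 1 DP-3 library (1.55, 1.61 and 1.20). The median log2 fold change of the list was -0.04 in D-3 against D-2, beside 0.11 for all genes. In DP-3 day 1 against D-2 it was -0.06 beside 0.09. It was 0.04 beside -0.06 in DP-3 against DP-3 day 1, and 0.13 beside -0.05 in DP-3 against D-3.

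**Figure D5:**
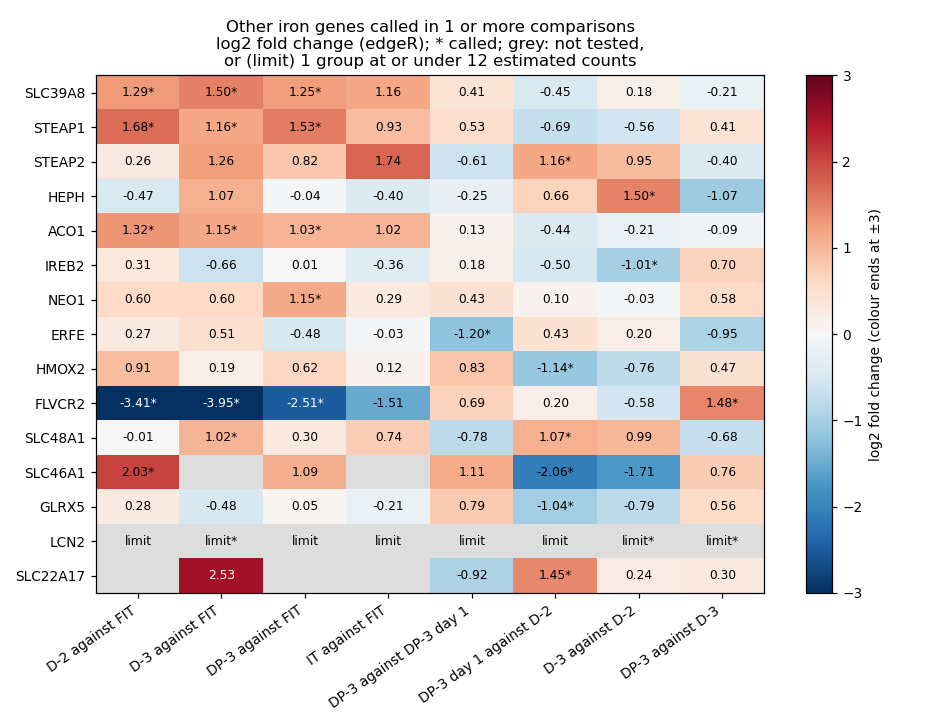
Rows are 15 of the 16 other iron genes called in at least 1 comparison and columns the 8 comparisons; numbers and colours are log2 fold changes from edgeR, an asterisk marks a call, and "limit" marks a comparison with a group at or under 12 estimated counts. FLVCR2 is blue in the comparisons of DP-3, D-2 and D-3 with FIT (-2.51, -3.41 and -3.95), and LCN2 is called in the 3 comparisons of D-3.

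HMOX1 and FTL are also known targets of the transcription factor NRF2, as are FTH1 and BLVRB. Of 8 NRF2 targets outside iron handling, OSGIN1 and SLC7A11, the cystine carrier that protects from ferroptosis, were called in the same direction as HMOX1 in D-3 against D-2 (2.26 ± 0.21 and 1.36 ± 0.12) and in DP-3 day 1 against D-2 (2.02 ± 0.07 and 1.26 ± 0.06). They were called lower in DP-3 against DP-3 day 1 (-1.61 ± 0.11 and -1.16 ± 0.13) and in DP-3 against D-3 (-1.83 ± 0.22 and -1.25 ± 0.17), and no other gene of the list was called in these 4 comparisons. These 2 of 8 (25%) stand beside 18.5%, 17.2%, 7.56% and 9.12% of all genes, in that order, so in both comparisons with D-2 the count was close to the share of all genes. The median log2 fold change of the 8 was -0.02 in D-3 against D-2, beside 0.11 for all genes, so the list did not rise with these 2 there. In DP-3 day 1 against D-2 it was 0.49 beside 0.09. It was -0.42 beside -0.06 in DP-3 against DP-3 day 1, and -0.12 beside -0.05 in DP-3 against D-3. NQO1, the most used marker gene of NRF2, was not called in any of the 4 and was at 0.09 ± 0.12 in D-3 against D-2. Against FIT, 4 of 8 were called higher in each of DP-3, D-2 and D-3, where 1.66%, 3.83% and 4.29% of all genes were called higher. NQO1 was among them, with 2.09 ± 0.24 in DP-3, 1.75 ± 0.15 in D-2 and 1.88 ± 0.19 in D-3. SLC7A11 was also among them, with 1.41 ± 0.32, 1.2999 ± 0.30 and 2.70 ± 0.31. SLC7A11 kept its call in DP-3 in 6 of 14 alternatives.

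Ferritin has many near-identical processed copies in the genome, between which reads can be split. The data list 34 of them, 21 of FTH1 and 13 of FTL, and their values are uncertain for that reason. The FTH1 copies together held from 1.08% to 1.62% of the estimated counts of FTH1 over the 18 libraries. The 3 most abundant copies, FTH1P8, FTH1P2 and FTH1P7, averaged 25.05, 19.97 and 16.6 FPKM in DP-3 day 1 and 3.68, 3.05 and 2.46 in FIT.

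The genes most like each of 4 iron genes were named by Pearson r of log2(FPKM + 0.1) over the 18 libraries, among 12394 genes with a mean of at least 1 FPKM. For HMOX1 these were FTL (0.95), GREB1 (0.95) and the copy FTH1P2 (0.95). For FTL they were CSF1 (0.97), with means of 15.8 FPKM in FIT and 74.1 in DP-3 day 1, PHLDB3 (0.95) and HMOX1 (0.95). For FTH1 the 3 nearest were its own copies FTH1P8 (0.98), FTH1P2 (0.97) and FTH1P7 (0.96). For TFRC they were FOCAD (0.93), TBC1D4 (0.92) and SMYD5 (0.91), none of which is a gene of iron handling in the lists used here. These r are chosen as the highest of many and share the group structure of the libraries.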

How the data were processed

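Transcriptome values of 18 libraries in 6 groups of 3 were used. Libraries were assigned to groups by the labels of the sample records. According to the methods and the submitters' processing notes, the authors captured poly(A) RNA, sequenced paired reads, filtered them with Cutadapt 1.9, aligned them with HISAT2 2.0.4 and assembled transcripts with StringTie 1.3.4d. The genome build is not given in the sources used here. The authors computed the FPKM from StringTie. Each gene and library also has an estimated count, deposited without a method. The counts are whole, but of 212148 values up to 40 a share of 35.0% can be divided by 4, where 25% would be for single reads, so they were handled as estimates that follow coverage. All columns of values per sample were used (0 unused), and the authors' own comparisons were not.

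Genes reaching 0.1 FPKM in 3 or more of the 6 libraries compared were tested on the whole table by edgeR 4.0.16: TMM scaling, estimateDisp, glmQLFit and glmQLFTest, in R 4.3.3. A gene was called at a Benjamini-Hochberg adjusted p below 0.05 and a fold change of at least 2, and SE is the log2 fold change divided by the root of F. The alternatives were size factors of DESeq2, DESeq2 1.42.0, limma 3.58.1 on log2(FPKM + 0.1) and log2(FPKM + 1), a minimum of 1 FPKM, no filter, a fit of all 18 libraries, a block for the replicate number, and fits without 1 library. The code was tested on simulated counts.

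All 10 iron genes are named. Of the 57 other iron genes, at most 4 called ones per comparison were to be named, those with the largest absolute log2 fold change. Beyond this rule, SLC39A8 in D-2 and ACO1 in DP-3 and D-3, all against FIT, were added after their values had been seen. The values of other lists were limited to 3 genes. Some genes of the lists are not reported here. The members and lists were chosen with earlier results of these data known. Hairpins were read from GENCODE release 29 transcripts on GRCh38. Counting limits cover counting error only. Tables and plots were made with Python 3.11.15, pandas 2.3.3 and matplotlib 3.10.9.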

Additional observations from a re-analysis of the deposited data

How the results depend on the processing

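Of 72 pairs of a gene and a comparison, 20 were called, 13 of them under every alternative run, and 253 of the 280 alternative values of called pairs kept the call. None of the alternatives reversed a called value. Of 728 alternative values of uncalled pairs, 22 were called. The number of the 10 iron genes called changed by more than 1.5 times in 3 comparisons. In IT against FIT it was 0, but 1 with no filter, 3 with DESeq2 and 3 with a fit of all libraries. In DP-3 against D-3 it was 0, but 2 with a minimum of 1 FPKM and 2 with limma at either pseudocount. In DP-3 against FIT it was 4, and 0 with the replicate block, where the calls over all genes went from 965 to 164. With 1 library left out, the counts against FIT ran from 0 to 4 for DP-3, 3 to 4 for D-3, 2 to 3 for D-2 and 0 to 0 for IT. They ran from 2 to 3 in DP-3 against DP-3 day 1, 3 to 3 in DP-3 day 1 against D-2, 4 to 4 in D-3 against D-2 and 0 to 2 in DP-3 against D-3. Over all genes, the calls in DP-3 against FIT ran from 90 to 1438 in these fits.

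Calls of the other iron genes moved more. Limma on log2(FPKM + 1), which shrinks low genes, gave 2 in D-2 and 2 in DP-3 against FIT, 0 in DP-3 against DP-3 day 1, 0 in DP-3 day 1 against D-2, 1 in D-3 against D-2 and 1 in DP-3 against D-3. Limma on log2(FPKM + 0.1) gave 2 in DP-3 against FIT and 3 in DP-3 against DP-3 day 1. The latter had 2 with no filter. A minimum of 1 FPKM gave 3 in DP-3 day 1 against D-2 and 2 in D-3 against D-2. DESeq2 gave 6 and a fit of all libraries 5 in IT against FIT. With 1 library left out they ran from 0 to 6, 1 to 6, 5 to 7 and 0 to 0 against FIT for DP-3, D-3, D-2 and IT, and from 0 to 1, 3 to 5, 2 to 6 and 0 to 2 in the other 4 comparisons in the order above. LCN2 was below the filter, and so not tested, in the fits without a D-3 library.

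Replicate numbers did not pair the libraries, since the correlation of deviations of same-numbered libraries was between -0.04 and 0.06. With the replicate number as a block, calls of the 10 iron genes in DP-3 against FIT went from 4 to 0, those of the other iron genes from 5 to 0, and those of the other iron genes in DP-3 against D-3 from 2 to 1. The block changed no other count of iron genes by over 1.5 times. Over all genes, calls went from 965 to 164 in DP-3 against FIT and from 1887 to 1019 in DP-3 against D-3. In the 4 calls lost, the log2 fold changes with the block were 2.18 for HMOX1, 1.67 for FTL, 1.52 for TFRC and 1.04 for FTH1. Their adjusted p by edgeR ran from 0.0523 to 0.0689. The cause of these changes was not tested. FIT replicate 3 had the fewest counts, and 12 estimated counts there stand for 0.506 CPM, against 0.152 CPM in the deepest library, so SLC40A1 could not be ranked between groups below that.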
